A study of Sus scrofa with 57 samples.

Results

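PPARA, PPARD and PPARG, which encode the peroxisome proliferator-activated receptors, and CEBPA, which encodes C/EBP alpha, were followed in adipocytes of lean and obese pigs. They were chosen by name. The 4 genes have 5 loci among the 25285 genes of the expression tables, since PPARA has 2. Mature adipocytes, the lipid-filled cells that float after collagenase digestion, came from retroperitoneal fat of pigs of a Duroc and Göttingen minipig F2 intercross, slaughtered as young adults and picked from the lean and obese extremes. RNA was sequenced (RNAseq) from 5 lean and 5 obese males, with 11 libraries because obese pig-572 has 2 by their titles. The description of the second carries another number, and its r with the first, 0.951 over the genes tested, was within the range of 0.892 to 0.956 between libraries of different pigs, so that they are of 1 animal rests on the titles. Methylated DNA was captured and sequenced (mDNAcap) in a deposited comparison of 11 lean and 11 obese libraries of both sexes, and bisulfite-converted DNA was sequenced after restriction digestion (RRBS). Lean and obese denote the body type of intercross animals, not a diet or a treatment, and each RNA sample is a different animal except the 2 libraries of pig-572.

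PPAR gamma and C/EBP alpha are transcription factors that drive the making of fat cells and then keep the genes of the mature adipocyte switched on, and each promotes the expression of the other during differentiation. The 3 PPARs are nuclear receptors that bind fatty acids and related ligands and act on DNA as dimers with a retinoid X receptor. PPAR gamma is the isotype typical of adipocytes and favours fat storage, PPAR alpha is best known for fatty acid oxidation in liver, and PPAR delta is found in many tissues and also favours oxidation.

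PPARG was the most abundant member in every pig, and its means were close in both groups. Levels are FPKM, fragment counts per unit of transcript length and of mapped reads, further divided by a size factor of the library. PPARG (ENSSSCG00000011579, Sscrofa10.2 chr13:75578054-75650239) had 112, 106, 105, 66.1 and 83.9 in lean pig-402, pig-407, pig-413, pig-525 and pig-577, and 89.0, 94.7, 88.5, 105 and 73.6 in obese pig-433, pig-473, pig-524, pig-529 and pig-572. Values of single pigs are given in this order throughout. The lowest and the highest pig were both lean, and the obese values lay between them. The mean was 94.7 ± 19.3 in the lean and 90.1 ± 11.2 in the obese group (SD, n = 5 each). On the scale of log2(level + 1), used for every fold change here, obese minus lean was -0.06 (SE 0.169, 95% interval -0.43 to 0.32), with a limma adjusted p = 0.873 and a two-sided exact permutation p = 0.706. The interval leaves room for a difference of moderate size in either direction, and the sign turned, to 0.01, without lean pig-402 and without obese pig-572. PPARG ranked 625 of the 10246 genes tested by mean level, and the highest pig was 1.70 times the lowest.

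PPARA was read from both of its loci, and each had a higher mean in obese pigs without passing the test. The longer locus lies on chromosome 5 (ENSSSCG00000000006, chr5:424928-488440, entered in the tables as PPARALPHA) and the shorter on an unplaced scaffold (ENSSSCG00000024896, Un_GL895405.2:3658-6512, entered as PPARA). The chromosome 5 locus holds both RRBS regions that overlap a member, described with the methylation data. A stretch around a CpG in each is shown because these are the methylation sites inside a member for which the study lists sequence. Each has 31 bases of Sscrofa10.2, in the orientation of the study's list, which gives no strand, and capitals mark the CpG at its middle. Stretch 1 is at chr5:435040-435070 and holds 1 CpG, and stretch 2 is at chr5:444283-444313 and holds 4.
PPARA stretch 1: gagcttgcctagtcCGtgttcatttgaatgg
PPARA stretch 2: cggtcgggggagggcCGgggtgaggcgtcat
G and C make up 15 bases of stretch 1 and 24 bases of stretch 2.

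The chromosome 5 locus of PPARA had levels of 11.9, 12.7, 5.82, 5.84 and 7.24 in the lean pigs, and 14.9, 9.03, 11.5, 10.7 and 13 in the obese pigs. Lean pigs split into a higher pair, pig-402 and pig-407, within the range of the obese pigs, and 3 pigs below every obese pig. The means were 8.68 ± 3.33 in the lean and 11.8 ± 2.25 in the obese group (SD, n = 5 each), a log2 fold change of 0.46 (SE 0.224, 95% interval -0.04 to 0.95). Its limma adjusted p was 0.272 and its exact permutation p was 0.111. The scaffold locus had 6.45, 6.38, 2.24, 3.11 and 4.06 in the lean pigs and 9.44, 4.36, 6.45, 5.91 and 7.31 in the obese pigs. The same lean pair was high there, and the groups overlapped again. The log2 fold change was 0.54 (SE 0.253, 95% interval -0.02 to 1.10; limma adjusted p = 0.257, exact permutation p = 0.103).

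The PPARA loci moved together across pigs, with r = 0.97 over n = 10 pigs (permutation p = 1e-05, the smallest that the permutations can give) and rho = 0.96 (permutation p = 4e-05). After removal of the group means r was 0.96 (exact p = 0.000139). Without the 2 pigs farthest from the median it was 0.96 (n = 8, exact permutation p = 0.000124). The chromosome 5 locus was 1.58 to 2.60 times the scaffold locus. Reads shared by 2 entries of 1 gene cannot be told apart in FPKM, so the split between the loci is uncertain and they count as 1 gene.

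PPARD varied most between animals. PPARD (ENSSSCG00000001539, chr7:36141605-36215260) had levels of 16.4, 7.15, 1.43, 10.6 and 5.04 in the lean pigs, and 27.9, 8.13, 14.9, 11.4 and 13.9 in the obese pigs. Obese pig-433 was far above the rest and lean pig-413 far below, while lean pig-402 and pig-525 stood within the obese range. The highest pig was 19.5 times the lowest, against 2.57 and 4.21 times for the PPARA loci and 2.77 times for CEBPA. Means were 8.13 ± 5.71 in the lean and 15.2 ± 7.54 in the obese group (SD, n = 5 each). The log2 fold change of 1.0 (SE 0.486, 95% interval -0.08 to 2.07) had a limma adjusted p = 0.269 and an exact permutation p = 0.103. Of the members it had the largest fold change and the widest interval. Without lean pig-413 the log2 fold change was 0.59. That pig had the lowest median r with the other pigs over the genes tested, 0.919, and the lowest summed markers of leukocytes, endothelium, fibroblasts, smooth muscle and blood, and the part of this in its PPARD level was not tested.

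CEBPA gave the lowest p of the members. CEBPA (ENSSSCG00000002866, chr6:38633642-38634707) had levels of 10.5, 17.0, 7.78, 7.79 and 13.5 in the lean pigs, and 19.7, 13.4, 21.6, 16.3 and 18.7 in the obese pigs. All 5 obese pigs were above the lean mean, but lean pig-407 was above obese pig-473 and pig-529, and lean pig-577 above obese pig-473, so the groups overlapped. The means were 11.3 ± 3.97 in the lean and 17.9 ± 3.15 in the obese group (SD, n = 5 each). The log2 fold change was 0.66 (SE 0.213, 95% interval 0.19 to 1.13). By itself it had an exact permutation p = 0.0397, where 0.00794 is the smallest that 5 against 5 pigs allow. Over all genes its limma adjusted p was 0.162, and the difference did not pass.

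**Figure D1:**
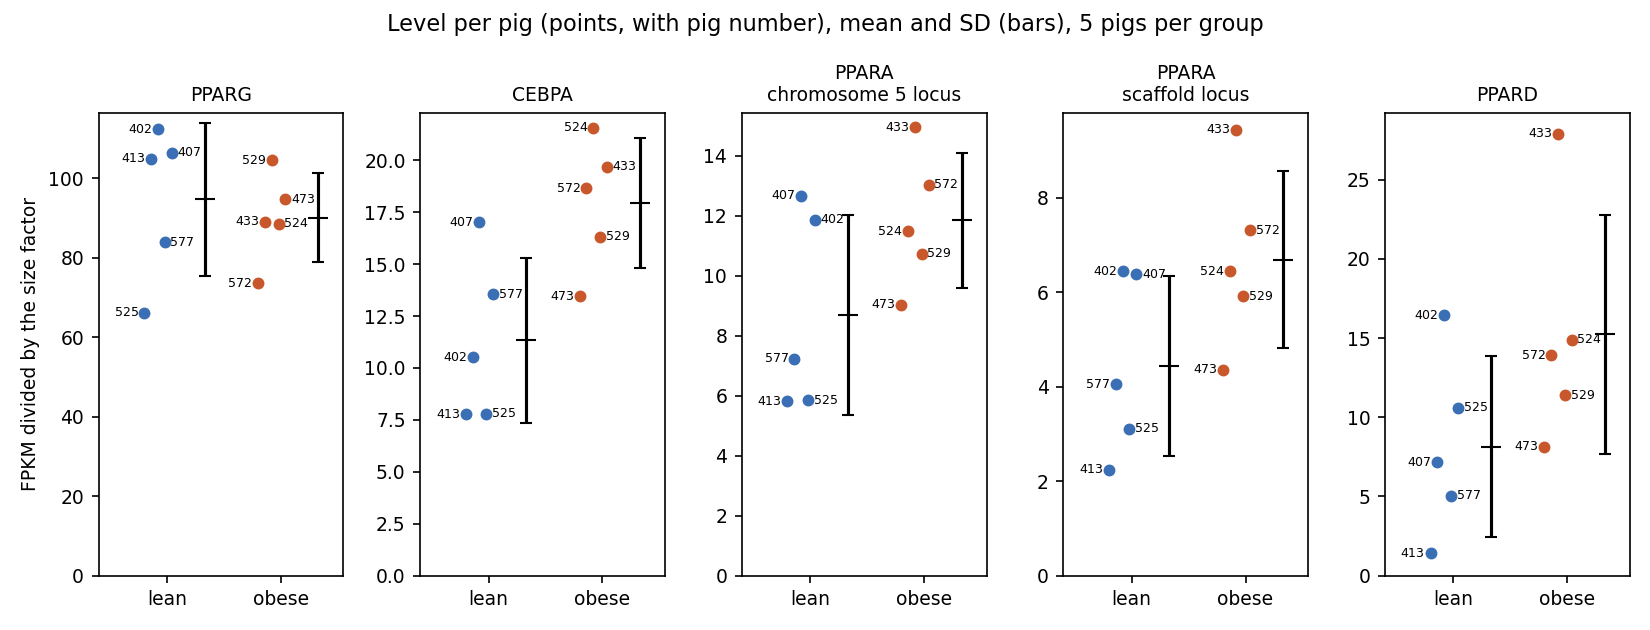
Level of each member, as FPKM divided by the size factor of the library, in 5 lean and 5 obese pigs. Points are pigs with their numbers and bars are mean and SD. PPARG spans 66.1 to 112 with the groups mixed, CEBPA reaches 17.0 in lean and 21.6 in obese pigs, and PPARD ranges from 1.43 in pig-413 to 27.9 in pig-433.

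By limma, none of the 5 loci passed an adjusted p under 0.05, and 1 of the 10246 genes tested did, which is 0.00976%. That gene was C10ORF46, named here after its values were seen, with a log2 fold change of 1.02 and a limma adjusted p of 0.00231. Without lean pig-402, 145 genes passed by limma, none of them a member. At an unadjusted p under 0.05, 1 of the 5 loci, CEBPA, was found, higher in obese pigs, beside 20.4% of all genes, of which 1125 were higher and 969 lower. No member separated the groups without overlap, as 2.43% of all genes did with higher and 1.68% with lower values in obese pigs.

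Per length, the order of the mean levels was PPARG, CEBPA, PPARD, the chromosome 5 locus of PPARA and its scaffold locus, with means over all pigs of 92.4, 14.6, 11.7, 10.3 and 5.57. PPARG stood apart from the others in every pig, whereas the ranges of CEBPA, PPARD and the chromosome 5 locus of PPARA overlapped. Overlap of the ranges is no test within pigs, in which CEBPA was above that PPARA locus except in pig-402. The ratio of PPARG to CEBPA was 6.19 to 13.5 in lean pigs, median 8.49, and 3.94 to 7.04 in obese pigs, median 4.52. The ratio of PPARG to PPARD ran from 3.19 in an obese to 73.3 in a lean pig, the last being pig-413 with its low PPARD.

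The bounds that cufflinks gave lay 1.62 to 2.66% from the value for PPARG, 2.64 to 11.8% for PPARD, 5.15 to 9.76% for CEBPA, and 4.79 to 8.0% and 9.27 to 19.2% for the PPARA loci. The depth of the libraries is unknown from FPKM. The libraries of pig-572 had 76.3 and 70.9 for PPARG, and 15.2 and 22.1 for CEBPA. The deposited FPKM of CEBPA was the same in both, 15.4, and the gap comes from their size factors of 1.01 and 0.697.

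Members were then compared with each other over n = 10 pigs, with the chromosome 5 locus for PPARA and 6 pairs in all. CEBPA and PPARA varied together, with r = 0.82 (permutation p = 0.00463, adjusted over the pairs 0.0278) and rho = 0.76 (permutation p = 0.0156, adjusted 0.0804). Lean pig-413 and pig-525 were lowest in both genes. Within the groups, after removal of the group means, r was 0.74 (exact p = 0.0666). Without pig-413 and pig-525, which were farthest from the median of CEBPA, r was 0.49 (n = 8, exact permutation p = 0.22). Leaving out the extremes of CEBPA narrows its range, so this value cannot decide whether the relation rested on those pigs.

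PPARA and PPARD were related with r = 0.74 (permutation p = 0.00964, adjusted 0.0289) and rho = 0.71 (permutation p = 0.0268, adjusted 0.0804). Obese pig-433 was highest and lean pig-413 lowest in both. Within the groups r was 0.63 (exact p = 0.107), and without the 2 pigs farthest from the median of PPARA it was 0.80 (n = 8, exact permutation p = 0.0177, adjusted 0.106). CEBPA and PPARD had r = 0.57 (permutation p = 0.0812, adjusted 0.162) and rho = 0.54 (permutation p = 0.115), which did not pass, and r was 0.32 within the groups and 0.35 without pig-413 and pig-525. Without obese pig-572 the adjusted permutation p (n = 9) of both relations that had passed was 0.0584, with r = 0.81 and 0.73.

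PPARG had no relation that passed. With CEBPA it had r = 0.02 (permutation p = 0.949) and rho = -0.21 (permutation p = 0.562), and r turned to -0.49 without lean pig-525 and obese pig-572 (n = 8, exact permutation p = 0.218). It had r = 0.25 (permutation p = 0.495) and rho = 0.12 with PPARA, where r was 0.44 without pig-572 and 0.05 without pig-525 and pig-572. It had r = -0.21 (permutation p = 0.562) and rho = -0.05 with PPARD. The labels give no batch for the RNAseq libraries, so no relation was computed within batches.

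**Figure D2:**
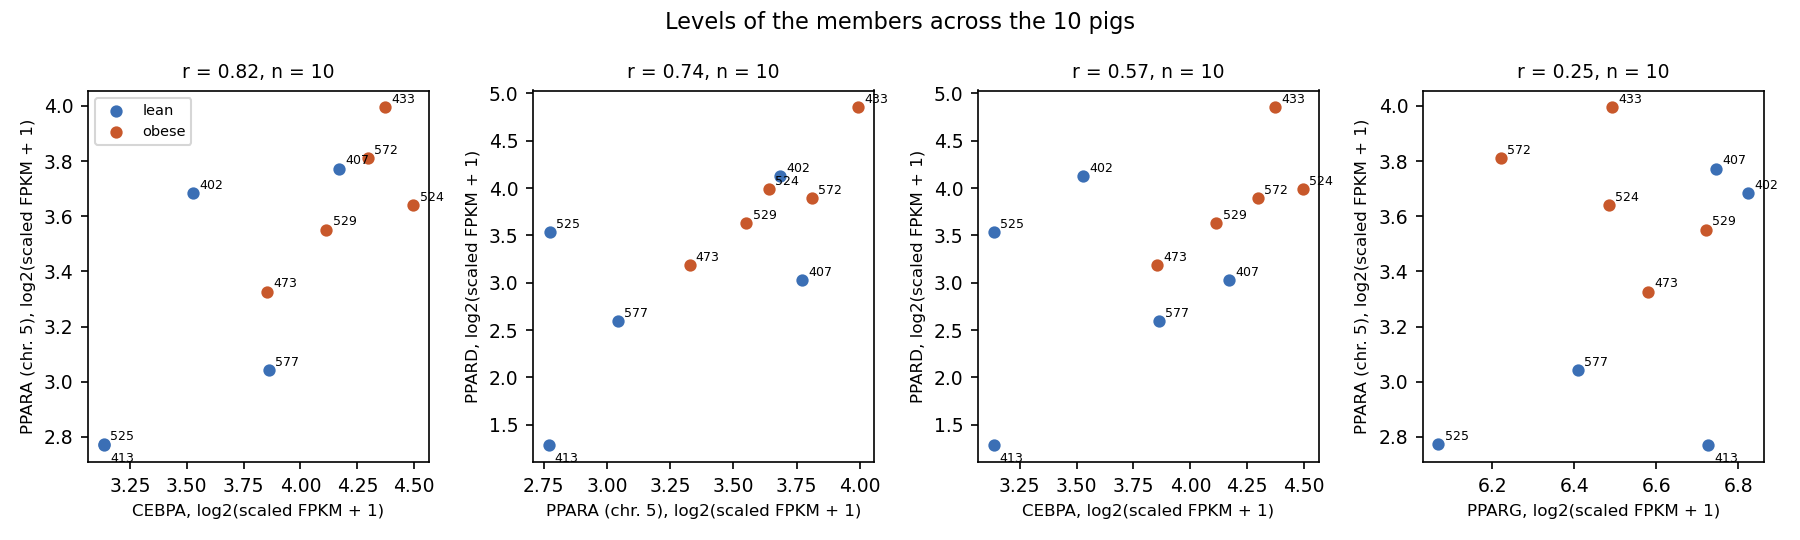
Levels of pairs of members in the 10 pigs, as log2(level + 1) with level in FPKM divided by the size factor. Each point is a pig with its number, coloured by group. CEBPA and PPARA have r = 0.82, with lean pig-413 and pig-525 at the lower left, and PPARG and PPARA have r = 0.25.

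For each member, the 3 genes with a symbol and the highest r across the 10 pigs were taken from 8499 named genes, as a description with no test because they were picked by r. For the chromosome 5 locus of PPARA these were EIF2C2 (r = 0.98), which encodes an Argonaute protein of RNA silencing, SSH1 (r = 0.98), a cofilin phosphatase, and SYNJ1 (r = 0.97), a phosphoinositide phosphatase. For the scaffold locus they were JUP (r = 0.99), which encodes plakoglobin of cell junctions, the chromosome 5 locus itself (r = 0.97) and GUK1 (r = 0.97), guanylate kinase. For PPARD they were an entry of SLC2A4 (r = 0.97), the insulin-responsive glucose transporter, DPP9 (r = 0.97), a dipeptidyl peptidase, and GOSR2 (r = 0.96), a Golgi SNARE. At r of at least 0.9 there were 76 genes for the chromosome 5 locus of PPARA and 54 for PPARD.

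Fewer genes were this close to PPARG and CEBPA. PPARG had 3 genes at r of at least 0.9, namely SIAE (r = 0.94), a sialic acid esterase, FAM54B (r = 0.92) and CHD4 (r = 0.91), a chromatin remodeller. CEBPA had 11, led by A2LD1 (r = 0.95), PITPNM1 (r = 0.94), a phosphatidylinositol transfer protein, and OPLAH (r = 0.94), the 5-oxoprolinase of glutathione turnover.

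Genes that act with the members or are known targets of them were grouped into 8 lists. In each list 0 genes passed an adjusted p under 0.05 by limma. Without lean pig-402 there was 1 among the corepressors and 1 among the C/EBP alpha targets, and without obese pig-433 there was 1 among the fat storage targets. Without 1 pig, the medians of the coactivators, the C/EBP family and the fat storage targets took either sign. Medians of the lists are given beside the median log2 fold change of all 10246 genes, 0.01, and counts at an unadjusted p under 0.05 stand beside that share of 20.4%.

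Of the retinoid X receptors, the dimer partners of the PPARs, 2 were tested, and 0 had an unadjusted p under 0.05. RXRG was 30.8 ± 15.3 in the lean and 14.8 ± 7.19 in the obese group (SD, n = 5 each), a log2 fold change of -0.96 with a limma adjusted p of 0.268. RXRB had means of 4.69 and 4.51, a log2 fold change of -0.05. RXRA was not matched by name in the tables.

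Coactivators, which link the receptors to transcription, had 8 genes tested, a median of 0.03 and 0 at an unadjusted p under 0.05. They ranged narrowly, as in MED1 of the Mediator complex (log2 fold change 0.04), NCOA1 (0.08), EP300, a histone acetyltransferase (0.13), and CITED2 (-0.21). The 8 corepressors tested had a median of -0.03 (-0.06 to -0.01 without 1 pig). Of these 8, 2 were higher in obese pigs at an unadjusted limma p under 0.05, near the share of 20.4% of all genes in either direction. WWTR1, the transcriptional regulator TAZ that can repress PPAR gamma, was 5.92 ± 2.48 and 13.8 ± 3.48 (SD, n = 5 each) without overlap (log2 fold change 1.14, limma adjusted p = 0.0828). HDAC3 (-0.08), NRIP1 (-0.19) and SIRT1 (-0.31) had negative log2 fold changes that did not pass.

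The other C/EBP proteins had 5 genes tested, a median of 0.05 and 0 at an unadjusted p under 0.05. CEBPD, which acts early in adipogenesis, was between 17.3 and 75.8 in lean and between 16.5 and 41.3 in obese pigs, with a log2 fold change of -0.64. CEBPG, the neighbour of CEBPA on chromosome 6, had a log2 fold change of 0.45 and a limma adjusted p of 0.282. CEBPB (0.20), which has 2 near-identical entries and is uncertain, CEBPZ (-0.04) and DDIT3 (0.05) lay nearer to 0, and CEBPE was listed at 0 in all pigs.

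Other adipogenic factors had 15 genes tested and a median of -0.13, which was -0.19 without obese pig-433, -0.07 without obese pig-529 and -0.06 without the filter on low FPKM. EBF2, an early B cell factor that marks adipose precursors, was 3.85 ± 1.06 in the lean and 2.26 ± 0.403 in the obese group (SD, n = 5 each) (log2 fold change -0.55, limma adjusted p = 0.126). EBF2 has 2 entries of its name, and the split of reads between them is uncertain. KLF15, a Krüppel-like factor of nutrient metabolism, was the 1 gene of the list higher in obese pigs at an unadjusted p under 0.05 (log2 fold change 0.45, limma adjusted p = 0.206). EBF1 (-0.32), KLF4 (-0.59) and KLF9 (0.12) did not reach an unadjusted p under 0.05.

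Targets in fat storage, most tied to PPAR gamma, had 17 genes tested and a median of -0.01. AQP7, the glycerol channel of adipocytes, had levels of 24.6 to 30.4 in lean and 34.0 to 59.3 in obese pigs without overlap (log2 fold change 0.79, limma adjusted p = 0.0827). AGPAT2, an acyltransferase of triglyceride synthesis, was 8.66 ± 4.32 and 18.2 ± 7.42 (SD, n = 5 each; log2 fold change 1.04, limma adjusted p = 0.182). GK, glycerol kinase, went the other way with a log2 fold change of -0.63 (limma adjusted p = 0.207). The most abundant genes of the list, the fatty acid transporter CD36, the lipid droplet protein CIDEC and the glycerol phosphate dehydrogenase GPD1, had log2 fold changes of -0.32, -0.25 and -0.21 with overlapping groups.

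Targets in fatty acid oxidation, most tied to PPAR alpha and PPAR delta, had 21 genes tested and a median of -0.25, which was between -0.22 and -0.13 without 1 pig, the last without lean pig-413, and -0.12 without the filter on low FPKM. At an unadjusted p under 0.05, 6 of them were lower and 0 were higher in obese pigs. Genes of the response to dissociation and RNA stress had 9 lower and 0 higher between the same pigs, and their part in this was not tested. ACAA2, a mitochondrial thiolase, had levels of 65.2 to 114 in lean and 42.5 to 59.3 in obese pigs, and HADHA, of the trifunctional protein, had 40.9 to 77.6 and 27.5 to 40.1. Neither overlapped between the groups, with log2 fold changes of -0.70 and -0.66 and limma adjusted p of 0.111 and 0.121. HADHB, the partner subunit of HADHA, had -0.52, ACAA1, the peroxisomal thiolase, -0.68, and HADH, which was among the most abundant, 0.02. PDK4, a kinase that inhibits pyruvate dehydrogenase, was 300 ± 215 and 72.8 ± 55.4 (SD, n = 5 each), a log2 fold change of -2.28 with a limma adjusted p of 0.189. PPARA and PPARD had positive and these targets mostly negative fold changes, 15 of 21 being below 0 beside 5051 of all 10246 genes. Neither of these members nor any single target passed the adjusted threshold by limma, and the contrast between them was not tested.

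Targets of C/EBP alpha had 6 genes tested and a median of 0.10, which ranged from 0.05 without lean pig-525 to 0.16 without obese pig-572. LEP, which encodes the hormone leptin, had 7.30 to 54.7 in lean and 73.4 to 154 in obese pigs without overlap (log2 fold change 2.3, limma adjusted p = 0.0828). SLC2A4, in its more abundant entry, had 0.35, INSR, the insulin receptor, 0.12, and AGT, angiotensinogen, 0.04. SLC2A4 and INSR each have 2 entries in the tables, and the split of reads between them is uncertain.

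**Figure D3:**
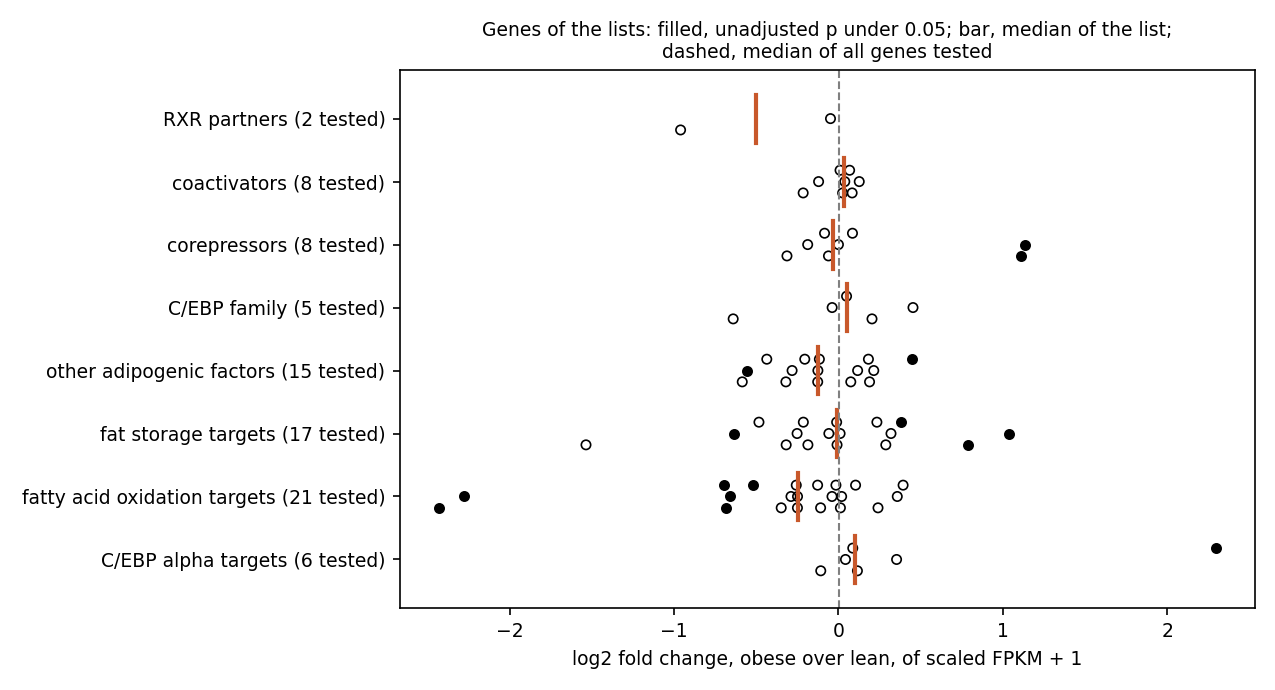
Log2 fold change, obese over lean, of the tested genes of each list. Filled points have an unadjusted limma p under 0.05, bars are list medians and the dashed line is the median of all genes tested, 0.01. The filled points of fatty acid oxidation targets all lie below 0, and LEP lies at 2.3.

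The cells were checked against markers. The 6 adipocyte markers matched summed to levels of 1450 ± 139 in the lean and 1487 ± 117 in the obese group (SD, n = 5 each) (exact permutation p = 0.643), and CIDEC was the most abundant. ADIPOQ, FABP4 and LPL were not matched. Summed markers of macrophages and leukocytes were 8.17 in lean and 7.34 in obese pigs, with CD14 highest at 1.87 and CD163 listed at 0 in all pigs. Endothelial markers summed to 7.28 and 6.66, led by PECAM1, those of smooth muscle and pericytes to 8.47 and 10.7, led by TAGLN, and those of skeletal muscle to 0.332 and 0.640, led by CKM. Markers of fibroblasts and preadipocytes were plentiful, at 570 and 483, led by the collagen gene COL3A1, and blood markers were at 45.6 and 30.8, led by HBB. None of these 7 lists had a gene past the adjusted threshold by limma, and 2 of their genes, LEP among them, had an unadjusted p under 0.05. In such bulk samples fewer cells of a type cannot be told apart from less RNA per cell.

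Genes of the response to tissue dissociation and RNA stress were also summed. Of 31 genes 27 were matched and 23 tested, 0 passed the adjusted threshold by limma, and 9 were lower and 0 higher in obese pigs at an unadjusted p under 0.05, beside 969 lower genes among all 10246, with a median log2 fold change of -1.01. The heat shock genes HSPA8 (0.80), HSPH1 (0.39) and HSP90AA1 (0.38) were the 3 with positive log2 fold changes, and they did not pass. Their summed level was 2350 ± 904 in the lean and 1404 ± 557 in the obese group (SD, n = 5 each) (exact permutation p = 0.103), with FOS the most abundant. It was highest in lean pig-413, pig-525 and pig-577, the 3 with the lowest chromosome 5 level of PPARA.

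Across n = 10 pigs and over 8 relations computed, chosen after the markers were seen, PPARA had r = -0.79 with this sum (permutation p = 0.00896, adjusted 0.0400; rho = -0.71, permutation p = 0.0260, adjusted 0.139). CEBPA had r = -0.78 (permutation p = 0.0100, adjusted 0.0400; rho = -0.68, permutation p = 0.0349, adjusted 0.139). Within the groups r was -0.70 for PPARA (exact p = 0.0410) and -0.66 for CEBPA (exact p = 0.0597), each with an adjusted p of 0.239, which did not pass. Without the 2 pigs farthest from the median of the sum, pig-524 and pig-572, r was -0.83 for PPARA (n = 8, exact permutation p = 0.0161) and -0.68 for CEBPA (n = 8, exact permutation p = 0.0696). PPARD had r = -0.49 (permutation p = 0.148) and rho = -0.49, and PPARG had r = -0.09 (permutation p = 0.794) and rho = -0.15. Without the same 2 pigs these were r = -0.43 (n = 8, exact permutation p = 0.293) and r = -0.60 (n = 8, exact permutation p = 0.110). The summed adipocyte markers had no relation with a member that passed over the 10 pigs. For PPARG r was -0.37 (permutation p = 0.297), and -0.74 without pig-407 and pig-572 (n = 8, exact permutation p = 0.0297).

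With log2 of this sum as a covariate in limma, chosen after the data were seen, the log2 fold changes were 0.38 for CEBPA, 0.14 and 0.22 for the chromosome 5 and scaffold loci of PPARA, 0.71 for PPARD and -0.11 for PPARG. The limma adjusted p then ran from 0.706 for CEBPA to 0.907 for PPARG. With the covariate, CEBPA, both PPARA loci and PPARD had smaller values, PPARD going from 1.0 to 0.71, and PPARG was more negative. The summed stress measure itself differed in mean between the groups.

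DNA methylation near the members was read from the regions of the authors' deposited comparisons of lean and obese pigs. These comparisons hold somewhat more regions than the paper counts as differentially methylated. mDNAcap regions are windows in which the captured read count differed, given as a normalized count per library, and RRBS regions are runs of CpGs with a mean methylation per group. The labels give 10 lean and 13 obese pigs for each assay, and pig-411, labelled obese, stands among the lean libraries of the deposited mDNAcap comparison. The 11 obese libraries of that comparison are fewer than the other pigs labelled obese. The group of pig-411 in the RRBS means is not known. Of the 5 member loci, 3 had an mDNAcap region in or within 50000 bases, beside 28.3% of all 25285 loci. An RRBS region, in the table that asks for values in at least 3 pigs a group, lay as near to 2 of the 5, beside 16.0% of all loci. In all there were 6 mDNAcap and 4 RRBS regions. The loci span 63513 bases for PPARA on chromosome 5, 2855 on the scaffold, 73656 for PPARD, 72186 for PPARG and 1066 for CEBPA. The relation of locus length to the number of regions was not tested.

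PPARA on chromosome 5 had 3 mDNAcap regions. The 1 inside the locus, chr5:463101-464100, had normalized counts with a lowest, median and highest value of 13.2, 20.4 and 22.8 over 11 lean libraries and 2.44, 13 and 22.6 over 11 obese libraries. In 10 of 11 obese libraries the count was below the lean median, and the groups overlapped. On the scale of log2(normalized count + 1) obese minus lean was -0.73 (SE 0.237, limma adjusted p = 0.00936). Both others lay after the locus and overlapped the gene PKDREJ. The region chr5:512201-514200, at 23.8 kb, had 24.2, 49.5 and 71.2 in lean and 45.9, 64.8 and 108 in obese libraries, a difference of 0.47 (limma adjusted p = 0.0102). The region chr5:514301-515300, at 25.9 kb, had 12.2, 23.2 and 31.0 in lean and 15.0, 31.3 and 49.1 in obese libraries, a difference of 0.48 (limma adjusted p = 0.0158). In these regions, selected for a difference in the same libraries, capture was lower in obese libraries inside the locus and higher over PKDREJ. At each, 10 of 11 obese libraries lay on that side of the lean median.

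PPARD had 1 mDNAcap region, chr7:36115001-36116200, 25.4 kb before the locus and overlapping FANCE, a Fanconi anemia gene. Its counts were 13.8, 22.7 and 29.0 in lean and 2.91, 12.6 and 29.3 in obese libraries as lowest, median and highest. The highest count was that of an obese library, yet 10 of 11 obese libraries were below the lean median. The difference was -0.79 (SE 0.245, limma adjusted p = 0.00871).

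CEBPA had 2 regions, both lower in obese libraries. The region chr6:38623001-38624000 lay 9.64 kb before the locus, with CEBPA as the nearest gene, and had 5.52, 14.0 and 24.2 in lean and 5.81, 7.87 and 15.8 in obese libraries (difference -0.60, SE 0.223, limma adjusted p = 0.0143). The region chr6:38666801-38668000 lay 32.1 kb after the locus, between CEBPA and CEBPG, and had 10.1, 18.4 and 22.3 in lean and 2.91, 10.8 and 17.1 in obese libraries (difference -0.79, SE 0.227, limma adjusted p = 0.00849). In the latter all 11 obese libraries were below the lean median, and in the former 10 were.

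PPARG, the most abundant member, had no region within 50000 bases, its nearest mDNAcap region being 70.6 kb and its nearest RRBS region 655 kb away. The scaffold of the other PPARA locus carries none.

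**Figure D4:**
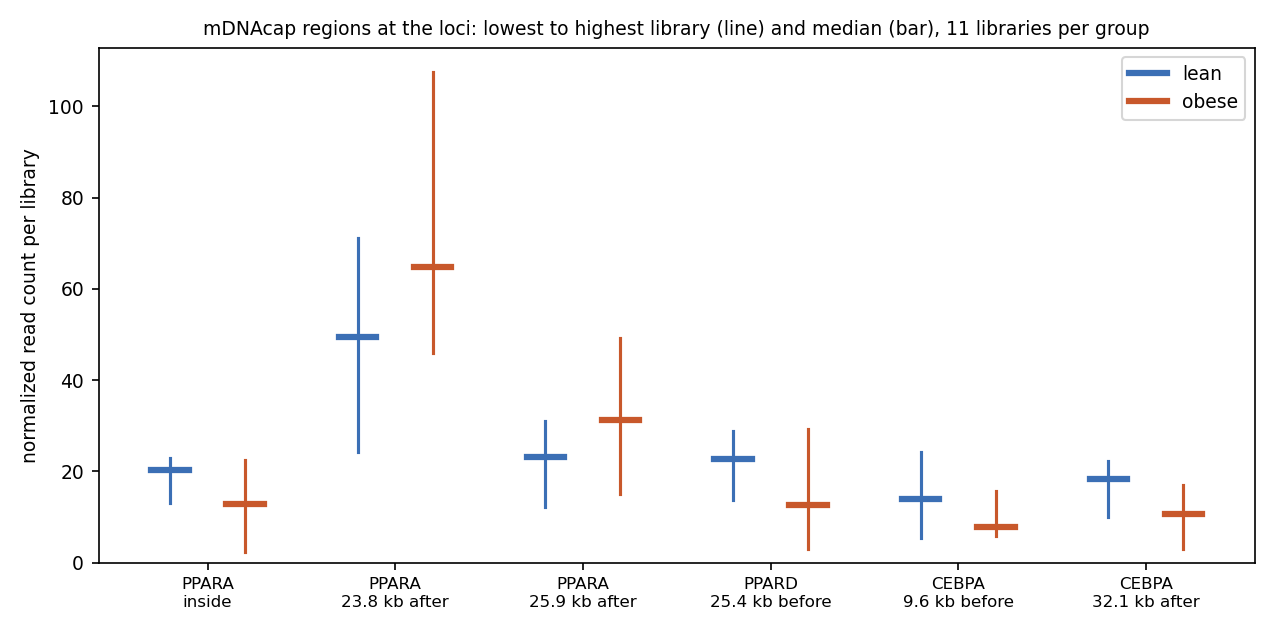
Normalized read counts at the 6 mDNAcap regions near members, in 11 lean and 11 obese libraries. Lines run from the lowest to the highest library and bars are medians. Medians are lower in obese libraries at 4 regions and higher at the pair after PPARA, at 64.8 and 31.3, and the lines of the groups overlap at all 6.

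The regions were selected for a difference in the same libraries. Their p-values and their counts of libraries against the lean median therefore only describe them and are no independent evidence of a difference. By limma 69.0% of all 7401 mDNAcap regions were lower and 27.1% higher in obese pigs at an adjusted p under 0.05, so 4 lower and 2 higher regions are near that background. With size factors from the median of ratios over the regions, 807 regions were lower and 2125 higher, in place of 5109 and 2009, and the median of all regions moved from -0.67 to -0.37. The 4 lower regions near members then did not pass, at -0.43 inside PPARA, -0.49 before PPARD, and -0.31 and -0.49 before and after CEBPA, while those over PKDREJ passed, at 0.78 and 0.79. With the mean read count per bin as a covariate none of the 6 passed. The differences were then -0.56 inside PPARA, -0.72 before PPARD, -0.45 and -0.58 before and after CEBPA, and 0.37 and 0.31 over PKDREJ. The header names the libraries, but the counts within a region carry no names and were not assigned to pigs by their order, so sex, sequencing run and the FPKM of the same pig were not set beside them.

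Both RRBS regions within the chromosome 5 locus of PPARA had higher methylation in obese pigs. The region chr5:434913-435112, which holds stretch 1, has 12 CpGs with an authors' mean methylation of 72.9% in lean and 85.4% in obese pigs, 12.5 points higher. The region chr5:444134-444330, which holds stretch 2, has 14 CpGs at 17.3% in lean and 35.3% in obese pigs, 18.1 points higher. The former was mostly methylated and the latter mostly unmethylated in both groups. The mDNAcap region inside the same locus, at higher coordinates than both, went in the other direction.

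Before PPARD lay the other 2 RRBS regions, each with 10 CpGs. The region chr7:36092851-36093292, 48.3 kb away and overlapping TEAD3, a TEA domain transcription factor gene, had 84.3% in lean and 94.6% in obese pigs. The region chr7:36109015-36109418, 32.2 kb away and 184 bases from the ribosomal protein gene RPL10A, had 2.32% in lean and 13% in obese pigs. All 4 were higher in obese pigs, as were 1475 of the 2416 regions of the table, with 941 lower. Group means without values per pig allow no test here, the depth behind them is unknown, and the table that asks for at least 5 pigs a group has none of its 610 regions within 50000 bases of a member.

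**Figure D5:**
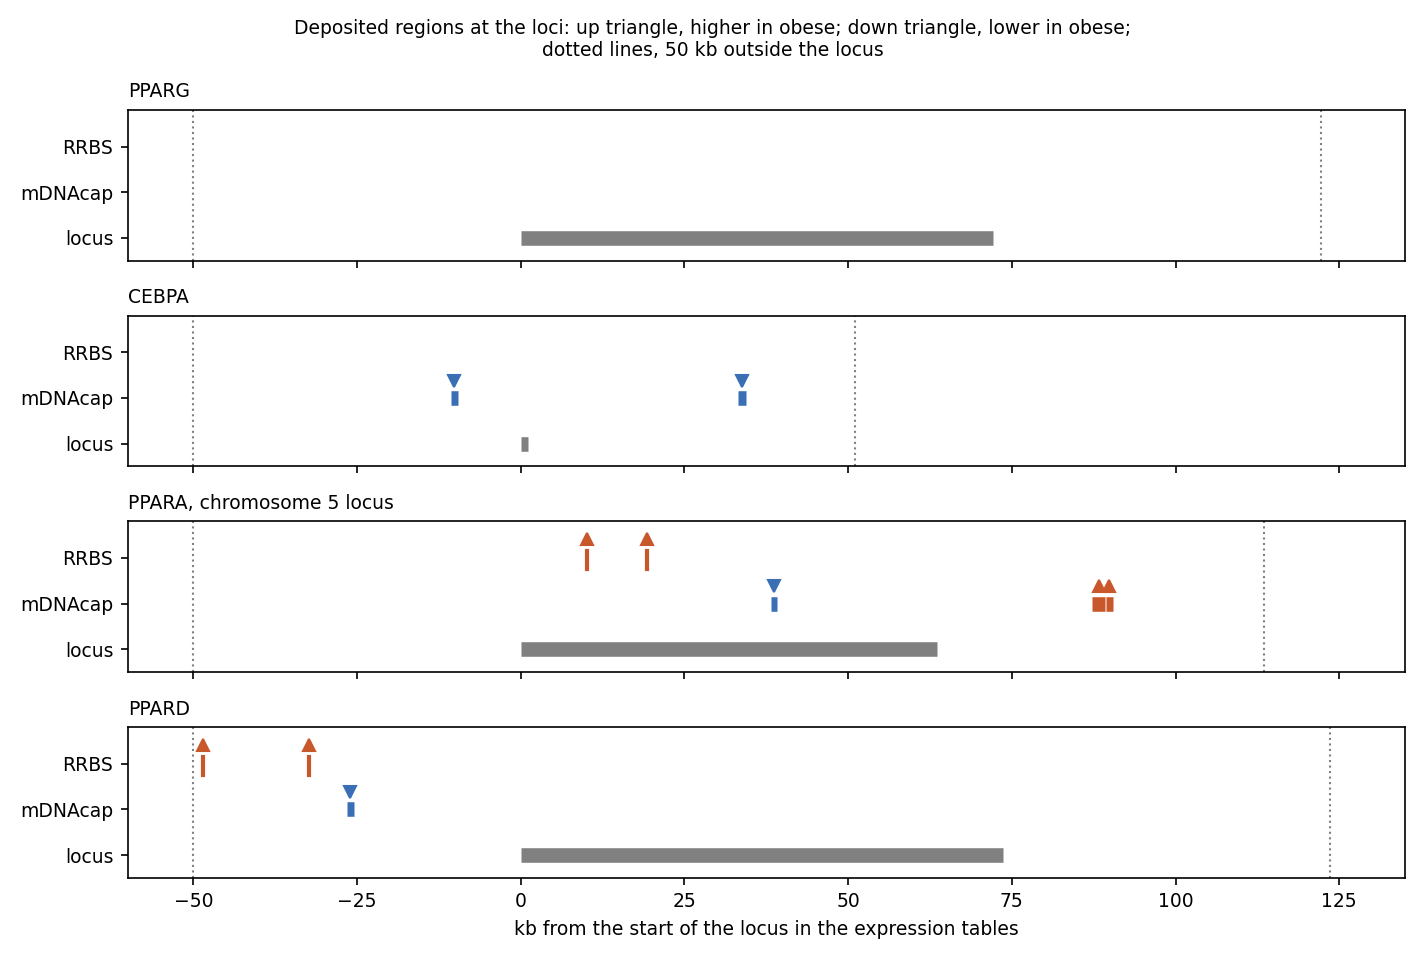
Deposited mDNAcap and RRBS regions around the loci of PPARG, CEBPA, PPARA on chromosome 5 and PPARD, by distance in kb from the start of the locus. Grey bars are loci, dotted lines are 50 kb outside them, and triangles point up where obese pigs were higher and down where they were lower. PPARG has none, CEBPA has 2 lower mDNAcap regions, and PPARA has 2 higher RRBS regions and 1 lower mDNAcap region inside its locus.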

How the data were processed

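The authors mapped the RNAseq reads to Sscrofa10.2 and estimated FPKM per library with cufflinks. The submitters' notes name STAR 2.3.1, Cufflinks 2.2.0, Bismark 0.10, Bowtie2 2.1.0 and Trimmomatic 0.22. The deposited mDNAcap values are normalized counts from diffReps 1.55.4, read counts divided by a constant per library, in windows of 1000 bases moved by 100 bases. The deposited RRBS values are a fraction per group from metilene, the mean over CpGs with at least 5 reads, and were turned into percent. The deposited score beside it is the number of CpGs. Columns with the authors' fold changes, p-values and q-values were not used. The depth of single libraries cannot be read from FPKM or from group means.

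The 25337 entries were added up to 25285 genes, and 9 genes without a valid estimate in all libraries were left out. A median-of-ratios size factor (0.697 to 1.21) scaled the FPKM of each library, and pig-572 entered as the mean of its libraries. The 10246 genes that reached a mean FPKM of 1 over the pigs were fitted as log2(value + 1) by limma 3.58.1 under R 4.3.3, using eBayes and a trend, and p was adjusted after Benjamini and Hochberg and held against 0.05. The scripts were tested on simulated data. A single gene was also tested over all 252 assignments of the pigs (exact, two-sided), and correlations with two-sided tests by 100000 permutations, or exact ones over 14400 arrangements for deviations from group means. mDNAcap regions were fitted with limma on log2(normalized count + 1) over 7401 regions. Python 3.11.15, numpy 2.4.6, pandas 2.3.3, scipy 1.17.1 and matplotlib 3.10.9 were used.

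Members and lists were chosen with earlier results of these data known. Genes named are the members, all retinoid X receptors and C/EBP genes, in each other list the 3 with the highest mean FPKM and the 3 with the lowest p, and for each member the 3 with the highest r. A gene that this rule takes is not reported here. Regions named are all those in or within 50000 bases of a member. Of 109 list genes 98 were matched by name, and of 87 marker genes 74. Alternatives were the pseudocount, the filter, scaling, the trend, the treatment of pig-572, leaving out each pig, the distance to regions, the RRBS table, the scaling of mDNAcap counts and, added after the data were seen, the stress covariate.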

Additional observations from a re-analysis of the deposited data

Results flagged for a closer look

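In 2 of 130 groups of 5 pigs examined, 1 pig stood far from the others of its group relative to the range, where chance does so in about 1 in 20 groups. CD36 reached a level of 1931 in obese pig-473, with the next obese pig at 1145. SLC2A4, in the less abundant of its 2 entries, reached 31.4 in obese pig-433, with the next obese pig at 23.7. Pig-433 also had the highest PPARD.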

How the results depend on the processing

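The fold changes of CEBPA, PPARD and both PPARA loci kept their direction and did not pass the adjusted threshold by limma under any alternative, nor without any 1 pig. PPARG ranged from -0.18 to 0.01 without 1 pig and was reversed without lean pig-402 (0.0121) and without obese pig-572 (0.0144). Genes past the threshold numbered 5 without the filter, 0 without scaling, 0 with scaling by summed FPKM, 16 with only the second library of pig-572, 163 with that library as a separate replicate, and 1 to 145 without 1 pig, the last without lean pig-402. None was a member. With the separate library 1 gene each passed among the corepressors, the targets in fat storage and in fatty acid oxidation, and those of C/EBP alpha. No paired analysis was possible because the groups hold different animals with their own numbers. The cause of these shifts was not tested.

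Of the correlations, CEBPA with PPARA lost the threshold at 0.74 within groups, 0.49 without the 2 farthest pigs and 0.81 without pig-572. PPARA with PPARD lost it at 0.63, 0.80 and 0.73 in the same order, and PPARG with CEBPA reversed to -0.49 without the 2 farthest pigs. Fewer pigs enter these fits except the first.

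For mDNAcap, with size factors, scaling by mean count per bin and that mean as a covariate, the lower regions ended short of the threshold at -0.43, -0.45 and -0.56 inside PPARA, -0.49, -0.50 and -0.72 before PPARD, -0.31, -0.33 and -0.45 before CEBPA, and -0.49, -0.51 and -0.58 after it. With the covariate the regions over PKDREJ lost the threshold too, at 0.37 and 0.31, while they passed at 0.78 and 0.79 with size factors and at 0.77 each with the mean count. With the covariate 738 of 7401 regions passed, 479 lower and 259 higher. Scaling by mean count left 1101 lower and 2094 higher. Regions overlapping a member numbered 1 for mDNAcap and 2 for RRBS, those within 10000 bases 2 and 2, and the RRBS table for 5 pigs gave 0.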
